A study of Zea mays with 8 samples.

Results

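Expression of 3 genes that encode DNA methyltransferases of maize was followed across 8 RNA sequencing libraries of immature ears: met1 (Zm00001d018976.RefGen_V4), zmet2 (Zm00001d026291.RefGen_V4) and zmet5 (Zm00001d002330.RefGen_V4). They were chosen by gene ID for what they encode, and all 3 were found among the 39498 gene IDs of every library. The rule itself uses no measured value, but earlier results of these data were known when the genes were chosen. The count tables give IDs alone. The names came with the choice of the genes, since 0 of the IDs matched the RefSeq gene table used here, so no coordinates are given. The libraries fell into 4 groups of 2: the inbred parents B73 and Mo17, both wild type, the wild-type hybrid (WTF1, written Mo17/B73 with +/+) and the mutant hybrid (mop1F1, written B73/Mo17 with mop1/mop1). Neither the mop1 allele, nor the direction of the crosses, nor how many plants stand behind a library is stated in the labels, so p-values measure the spread between libraries, which may be partly technical.

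Plants methylate cytosine in 3 sequence contexts, CG, CHG and CHH, where H is any base but G. MET1-type enzymes copy CG methylation onto the new strand after DNA replication. Chromomethylases such as ZMET2 and ZMET5 maintain CHG methylation and are drawn to chromatin that carries repressive histone methylation. RNA-directed DNA methylation places CHH methylation by way of small RNAs, and mop1 codes for the RNA-dependent RNA polymerase of that route. The mutation of the mutant hybrid lies in the RNA-directed route, and the genes described here encode enzymes that maintain CG or CHG methylation.

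All 3 genes were expressed in every library, with 471 to 9744 counts per gene and library against totals of 11723096 to 26199577 counts over gene IDs. Levels are given as CPM, the count scaled to that total, with exact Poisson 95% intervals that cover counting error only. They are not per length, because no gene lengths of the build used were at hand, so levels are compared between libraries and not between genes. The tissue label could not be checked, because the tissue marker genes could not be paired with IDs. By the names of the deposited tables, reads of the Mo17 parent were mapped to Mo17 and all others to B73, so parent and genome cannot be told apart, and Mo17 copies in the hybrids were read against B73. Related copies such as zmet2 and zmet5 may share reads, which makes their split uncertain to that extent.

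The largest differences among the 3 genes lay between the 2 wild-type hybrid libraries, for the 2 chromomethylase genes. The level of zmet2 was 243 and 271 CPM in B73, 212 and 217 CPM in Mo17, 65.5 and 372 CPM in WTF1, and 244 and 283 CPM in mop1F1, for replicates 1 and 2. WTF1 replicate 1 was thus the lowest and WTF1 replicate 2 the highest of all 8 libraries. The interval of WTF1 replicate 1 for zmet2 ran from 61.0 to 70.3 CPM, and the next lowest library, Mo17 replicate 1, stood 3.23 times higher. The other 6 libraries lay within a 1.34-fold range.

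The related gene zmet5 gave the same extremes. Its level was 149 and 142 CPM in B73, 145 and 139 CPM in Mo17, 40.2 and 207 CPM in WTF1, and 119 and 140 CPM in mop1F1. WTF1 replicate 1, with an interval of 36.6 to 44.0 CPM, lay 2.95-fold below the next lowest library, which was mop1F1 replicate 1. Outside WTF1 the zmet5 levels spanned a 1.26-fold range. In these bulk samples, fewer cells that express a gene and less of its RNA per cell cannot be told apart.

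The CG maintenance gene met1 did not share this drop. Its level was 114 and 86.0 CPM in B73, 127 and 145 CPM in Mo17, 96.1 and 155 CPM in WTF1, and 119 and 132 CPM in mop1F1. WTF1 replicate 1 was second lowest, above B73 replicate 2, and WTF1 replicate 2 was again the highest, by 1.07-fold over Mo17 replicate 2. Between the WTF1 libraries met1 differed 1.62-fold, compared with 5.68-fold for zmet2 and 5.15-fold for zmet5.

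**Figure D1:**
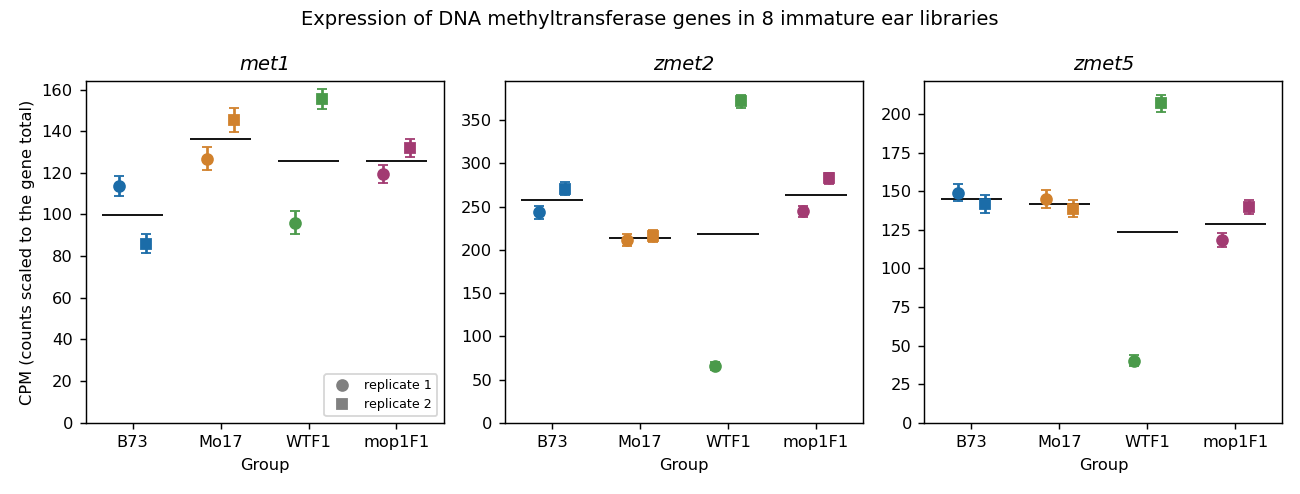
CPM of met1, zmet2 and zmet5 (vertical axis, from 0) in each library of the 4 groups (horizontal axis); circles are replicate 1, squares are replicate 2, bars are exact Poisson 95% intervals and black lines are group means. For zmet2 and zmet5 the WTF1 libraries lie below and above all others, at 65.5 and 372 CPM and at 40.2 and 207 CPM.

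As group means, met1 was at 99.9 ± 19.6 CPM in B73, 126 ± 8.80 in mop1F1, 126 ± 41.8 in WTF1 and 136 ± 13.0 in Mo17 (SD, n = 2 each). For zmet2 the order from low to high was Mo17 (214 ± 3.33 CPM), WTF1 (219 ± 217), B73 (257 ± 19.6) and mop1F1 (264 ± 27.1; SD, n = 2 each). For zmet5 it was WTF1 (124 ± 118 CPM), mop1F1 (129 ± 14.9), Mo17 (142 ± 4.29) and B73 (145 ± 5.15; SD, n = 2 each). Libraries of neighbouring groups in these orders overlapped, except for met1 in B73 and mop1F1, whose highest and lowest library stood at 114 and 119 CPM. Neither WTF1 library was near the WTF1 mean of zmet2 or zmet5, since 1 lay far below and 1 far above it.

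The gap between the WTF1 libraries was set beside that of the 24511 gene IDs tested, as the log2 difference of replicate 2 minus replicate 1 in log2(CPM + 1) with totals scaled by TMM (trimmed mean of M values). It was 2.51 for zmet2 and 2.36 for zmet5, larger in size than for 98.7% and 98.4% of IDs. In the same direction, 63 IDs (0.257%) reached at least the gap of zmet2 and 85 (0.347%) that of zmet5, these genes included. The gap of met1 was 0.71, larger than for 68.2% of IDs. The median size over all IDs was 0.46 in WTF1 and 0.47 in mop1F1, against 0.20 in B73 and 0.16 in Mo17.

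In the mutant hybrid, whose libraries had a like median over all IDs, the levels of all 3 genes were close, with log2 differences of -0.026 for met1, 0.041 for zmet2 and 0.067 for zmet5. At most 7.87% of IDs had a smaller difference than these. In CPM without TMM scaling, mop1F1 replicate 2 stood at 1.10 times replicate 1 for met1, 1.16 for zmet2 and 1.18 for zmet5. In the parents, met1 in B73 stood out most, with a difference of -0.42 that exceeded 81.2% of IDs.

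**Figure D2:**
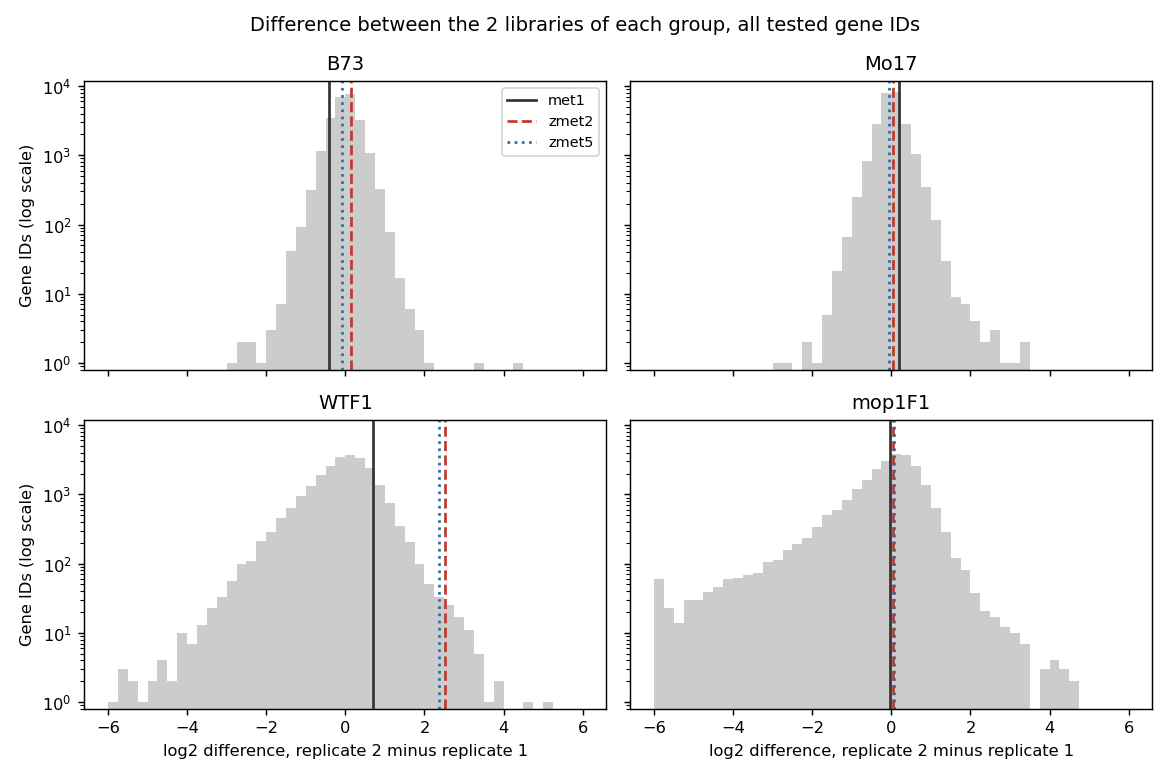
Histograms of the log2 difference between the 2 libraries of a group (horizontal axis, replicate 2 minus replicate 1) over 24511 gene IDs, with the number of IDs on a log scale (vertical axis) and differences beyond the axis placed in the outermost bins. The lines of zmet2 (2.51) and zmet5 (2.36) lie in the right tail in WTF1 and near 0 in mop1F1.

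WTF1 replicate 1 was the shallowest library, and 9.70% of its records were ambiguous between genes, close to the 10.3% of mop1F1 replicate 1. The other 6 libraries had 1.29% to 2.35%. The part of these reads in the low counts of zmet2 and zmet5 was not tested. In mop1F1 replicate 1, with a like share of ambiguous reads, zmet2 stood at 244 CPM and zmet5 at 119 CPM. Of the IDs tested, 441 (1.80%) were at least 2-fold lower in WTF1 replicate 1 than in each of the other 7 libraries, and zmet2 and zmet5 were among them. The same count was higher only in mop1F1 replicate 2, at 1121 IDs (4.57%). In the other 6 libraries it ran from 84 (0.343%, mop1F1 replicate 1) to 420 (1.71%, Mo17 replicate 1).

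The names of the deposited tables mark both hybrid libraries numbered 1 as GP1 and both numbered 2 as GP5, and the meaning of these marks is not stated. A difference between GP1 and GP5 and a difference between the replicate numbers cannot be told apart.

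The response to loss of mop1 was read from mop1F1 against WTF1, both mapped to B73. The written order of the parents also differs between the 2 hybrids, so the mop1 genotype cannot be told apart from it. None of the 3 genes changed by the test. The log2 fold change was 0.067 ± 0.31 for met1 (SE, edgeR quasi-likelihood test, adjusted p = 1), 0.33 ± 0.66 for zmet2 (edgeR, adjusted p = 1) and 0.12 ± 0.62 for zmet5 (edgeR, adjusted p = 1). The 95% intervals ran from -0.65 to 0.78 for met1, from -1.21 to 1.87 for zmet2 and from -1.33 to 1.58 for zmet5. Differences within these intervals were not excluded by these libraries. Over all IDs, 0.00816% were called in this comparison, so a missing call is the common case. In all 3 genes the mop1F1 libraries lay between the 2 WTF1 libraries, while the libraries of the 2 hybrids did not overlap at 12.5% of IDs.

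The direction rested on which WTF1 library was used. Without WTF1 replicate 1 the log2 fold change was -0.23 for met1, -0.42 for zmet2 and -0.61 for zmet5. Without WTF1 replicate 2 it was 0.42, 2.04 and 1.72. In these fits the lone WTF1 library is assumed to vary like the libraries of the other groups, so no test result is given for them. Leaving out a mop1F1 library kept all 3 values between 0.024 and 0.34. With a term for the hybrid libraries numbered 1, the values were 0.11 for met1, 0.82 for zmet2 and 0.56 for zmet5 (edgeR, adjusted p = 1 for each). The term fits 1 shift shared by both hybrids, although zmet2 and zmet5 differed far more between the WTF1 libraries than between the mop1F1 libraries.

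Within the libraries of the same number, the mutant and the wild-type hybrid differed in opposite directions. In the libraries numbered 1, mop1F1 stood at 1.24 times the WTF1 level in CPM for met1, 3.73 times for zmet2 and 2.95 times for zmet5. In those numbered 2 the same quotient was 0.849, 0.760 and 0.674. Opposite directions were common, at 66.4% of the tested IDs. A rise in number 1 and a fall in number 2 that were both at least as large as those of zmet2 occurred at 0.375% of IDs, for zmet5 at 0.571% and for met1 at 11.2%, the genes themselves included.

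**Figure D3:**
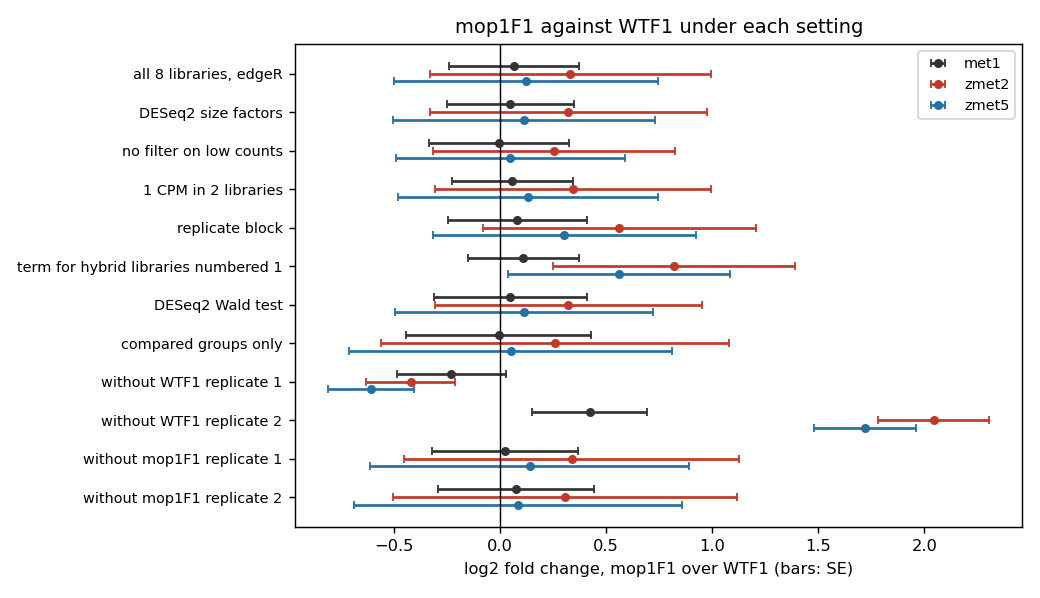
Log2 fold change of mop1F1 over WTF1 (horizontal axis; bars are SE) for met1, zmet2 and zmet5 under each setting of the analysis (vertical axis). Most settings lie near the values with all 8 libraries (0.067, 0.33 and 0.12), while leaving out WTF1 replicate 1 gives values below 0 and leaving out WTF1 replicate 2 gives 2.04 for zmet2 and 1.72 for zmet5.

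Parental bias was asked of B73 against Mo17. No gene of the 3 passed the test, in a comparison where 10.4% of IDs did. For met1 both B73 libraries were below both Mo17 libraries, and the log2 fold change was -0.38 ± 0.31 with an interval of -1.09 to 0.34 (SE, edgeR, adjusted p = 0.532). For zmet2 both B73 libraries were above both Mo17 libraries, at 0.33 ± 0.66 (SE, edgeR, adjusted p = 0.832; interval -1.21 to 1.87). Such separation of the parental libraries was found at 71.8% of IDs, so it does not set these genes apart. For zmet5 the parental libraries overlapped, at 0.10 ± 0.62 (SE, edgeR, adjusted p = 0.955; interval -1.35 to 1.56).

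The errors of this comparison include the spread of the hybrids, because all libraries shared 1 fit. In a fit of the 4 parental libraries alone the SE shrank to 0.17 for met1, 0.13 for zmet2 and 0.13 for zmet5, around log2 fold changes of -0.38, 0.33 and 0.098. The genes still did not pass (edgeR, adjusted p = 0.0963, 0.0798 and 0.592), although met1 and zmet2 had an unadjusted p of 0.0462 and 0.0364. In this fit of the parents alone, 9334 of 23444 IDs were called. The difference of met1 moved with single libraries: it was -0.61 without B73 replicate 1 and -0.18 without B73 replicate 2.

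The hybrids were set against the mean of the parental log2 levels. In WTF1 the log2 difference was 0.14 ± 0.26 for met1, -0.062 ± 0.57 for zmet2 and -0.18 ± 0.54 for zmet5 (SE, edgeR, adjusted p = 0.798, 0.965 and 0.886), and 4.77% of all IDs were called. For each gene the WTF1 libraries overlapped the parental range or lay on both sides of it, and at 25.3% of IDs they lay beyond all parental libraries on 1 side. These small differences again averaged 2 unlike libraries. With WTF1 replicate 1 alone, the log2 difference from the parents was -1.76 for zmet2, -1.76 for zmet5 and -0.20 for met1. With WTF1 replicate 2 alone, it was 0.74 for zmet2 and 0.61 for zmet5. A lone WTF1 library gives no spread of that group, so these fits are not read as tests. The 1.9% of all IDs called lower with WTF1 replicate 1 alone, zmet2 and zmet5 among them, therefore carry no measure of WTF1 variation.

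In mop1F1 the difference from the parents was 0.21 ± 0.26 for met1, 0.27 ± 0.57 for zmet2 and -0.053 ± 0.54 for zmet5 (SE, edgeR, adjusted p = 0.692, 0.827 and 0.967). No gene passed, where 6.06% of all IDs did. The errors of this comparison include the spread of WTF1, because all libraries shared 1 fit. In a fit of mop1F1 and the parents alone the values were 0.26 ± 0.18 for met1, 0.32 ± 0.15 for zmet2 and -0.0053 ± 0.14 for zmet5. They still did not pass (SE, edgeR, adjusted p = 0.409, 0.244 and 0.985), in a fit where 1990 of 24053 IDs were called. The mutant libraries overlapped the parental range for all 3 genes, whereas 23.9% of IDs did not overlap. With 1 library of either group left out, the values ranged from 0.11 to 0.32 for met1, from 0.24 to 0.32 for zmet2 and from -0.086 to 0.014 for zmet5. With the term for the hybrid libraries numbered 1 they were 0.39, 1.04 and 0.67 (edgeR, adjusted p = 0.360, 0.274 and 0.442). The shift of that term is shared by both hybrids, but the log2 gap of zmet2 was 2.51 in WTF1 and 0.041 in mop1F1. For zmet5 the gaps were 2.36 and 0.067. The values with the term are therefore not read as levels of mop1F1.

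**Figure D4:**
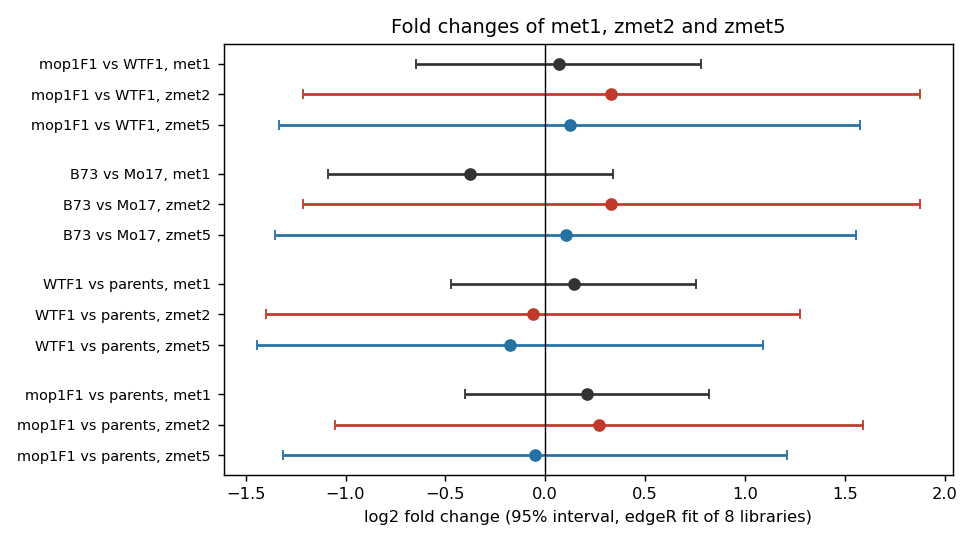
Log2 fold changes of the 3 genes (horizontal axis) in the 4 comparisons (vertical axis), with 95% intervals from the edgeR fit of 8 libraries. Every interval includes 0, and those of met1 (for example -0.65 to 0.78 for mop1F1 against WTF1) are narrower than those of zmet2 and zmet5.

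Ratios of 2 genes within a library do not depend on how libraries are scaled. The chromomethylase genes kept nearly the same proportion where their levels changed most: the count of zmet2 was 1.63 times that of zmet5 in WTF1 replicate 1 (exact binomial 95% interval 1.45 to 1.83) and 1.80 times in WTF1 replicate 2 (1.74 to 1.86). The ratio was 1.63 and 1.91 in B73 and 1.46 and 1.56 in Mo17. It was highest in mop1F1, at 2.06 (1.97 to 2.16) and 2.03 (1.95 to 2.11), though the interval of B73 replicate 2 (1.82 to 2.01) overlapped both. Both mutant libraries lay above both WTF1 libraries, beyond the counting intervals, but 2 libraries against 2 cannot give an exact permutation p below 0.333. How often the ratios of other gene pairs separate the hybrids was not tested.

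Against met1, both chromomethylase genes were lowest in WTF1 replicate 1. The count of zmet2 was 0.681 times that of met1 there (exact binomial 95% interval 0.621 to 0.748), compared with 1.49 to 3.15 times in the other 7 libraries. For zmet5 the ratio to met1 was 0.418 (0.375 to 0.466), compared with 0.955 to 1.65 elsewhere. In that library, met1 and the other pair thus stood in another proportion than elsewhere. In log2, the mean ratio of the 4 hybrid libraries minus that of the 4 parental libraries was 0.19 for zmet2 to zmet5, -0.31 for zmet2 to met1 and -0.50 for zmet5 to met1. None of the 3 passed a two-sided exact permutation test (p = 0.171, 0.657 and 0.286, adjusted over 3 ratios to 0.429, 0.657 and 0.429), for which 0.0286 is the smallest p possible. Without WTF1 replicate 1 the difference was 0.12 for zmet2 to met1 and -0.15 for zmet5 to met1.

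**Figure D5:**
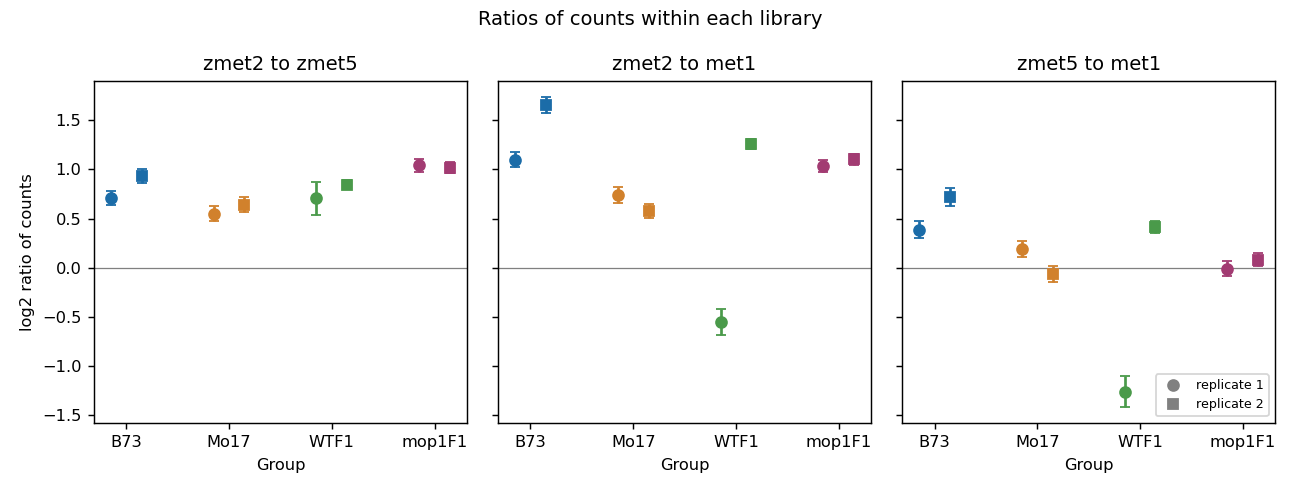
Log2 ratio of counts of 2 genes within each library (vertical axis) by group (horizontal axis); circles are replicate 1, squares are replicate 2 and bars are exact binomial 95% intervals. WTF1 replicate 1 is the lowest library for zmet2 to met1 (-0.55) and zmet5 to met1 (-1.26), while zmet2 to zmet5 stays between 0.55 and 1.04 in all libraries.

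Across the 8 libraries, log2(CPM + 1) of zmet2 and zmet5 correlated with Pearson's r = 0.972 (exact permutation p = 0.00789, adjusted over 3 pairs to 0.0237) and Spearman's rho = 0.476 (exact permutation p = 0.243, adjusted 0.365). Among the other 24510 IDs, zmet5 ranked 24 by its r with zmet2. Without the 2 WTF1 libraries, which were farthest from the median of zmet2, r was 0.124 (n = 6), so the relation rests on them. For met1, r was 0.518 with zmet2 and 0.553 with zmet5 (exact permutation p = 0.198 and 0.161, adjusted 0.198 for both), and rho was 0.5 and 0.0952 (exact permutation p = 0.216 and 0.840, adjusted 0.365 and 0.840). Without the WTF1 libraries these r were -0.284 and -0.482.

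The IDs with the most like pattern over the 8 libraries have no names here. For zmet2 they were Zm00001d028210.RefGen_V4 (r = 0.995) and Zm00001d037992.RefGen_V4 (r = 0.993), and for zmet5 they were Zm00001d042528.RefGen_V4 (r = 0.994) and Zm00001d038583.RefGen_V4 (r = 0.991). Zm00001d028210.RefGen_V4, for example, was at 15.4 CPM in WTF1 replicate 1, at 124 CPM in WTF1 replicate 2 and at 60.4 to 81.7 CPM in the other 6 libraries. Without WTF1 replicate 1, the r of these 4 IDs lay between 0.927 and 0.976 over 7 libraries. These 7 still include WTF1 replicate 2, the highest library for each of the 4 IDs. The r without both WTF1 libraries was not computed for them. For met1 they were Zm00001d016838.RefGen_V4 (r = 0.974) and Zm00001d009879.RefGen_V4 (r = 0.963). An r above 0.9 was found for 327 IDs with zmet2, 396 with zmet5 and 48 with met1. The IDs were picked for their r, so no test is given.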

How the data were processed

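RNA of immature ears was sequenced in 8 libraries, grouped by their titles. The authors deposited raw counts per gene ID, 1 library per table, with 5 summary rows of unassigned reads, which were left out of totals and tests. The submitters' processing notes name HTSeq, HISAT2, Trimmomatic, FastQC and DESeq2 but no versions, and neither strand setting nor annotation release is given in the sources used here. Where the number of a B73 library differed between title (2) and table name (1), the title was used.

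The main test was the edgeR 4.0.16 quasi-likelihood F test (R 4.3.3) on counts kept by filterByExpr, TMM-scaled, in 1 group-means fit of all libraries. P-values were adjusted over 24511 IDs by Benjamini-Hochberg, with a threshold of 0.05. The SE is the log2 fold change divided by the square root of F. Ratios were tested by exact permutation in scipy 1.17.1. Simulated data with 200 changed IDs were used to test the fits. Their changes were larger than those of the 3 genes here, and their spread was smaller than that fitted for zmet2 and zmet5. The power to detect changes in these genes was therefore not tested. DESeq2 1.42.0, other filters, scalings and designs, and fits without each library were alternatives. The 3 genes are always named, with the 2 IDs of highest r for each. The genes, lists and tests were chosen with earlier results of these data known. The lists of other DNA methylation genes and of tissue markers could not be paired with IDs and were not tested.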

Additional observations from a re-analysis of the deposited data

Results flagged for a closer look

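The difference between mop1F1 and WTF1 had opposite signs in the libraries numbered 1 and 2 for all 3 genes. In log2(CPM + 1) with TMM-scaled totals, mop1F1 minus WTF1 was 0.48 and -0.26 for met1, 2.05 and -0.42 for zmet2, and 1.70 and -0.59 for zmet5, for numbers 1 and 2. With 1 library of each hybrid per number, the difference between the numbers was not tested.

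Ambiguous reads, which no comparison used, had a share of records, 9.70% for WTF1 replicate 1 and 10.3% for mop1F1 replicate 1, that exceeded that of every parental library (at most 2.35%).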

How the results depend on the processing

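Of 150 fold changes of the 3 genes under alternatives, 136 kept their direction and stayed above the threshold of adjusted p, and 12 turned their direction. The rest were zmet2 and zmet5 in WTF1 against the parents without WTF1 replicate 2, a fit whose lone WTF1 library gives no spread of that group. For mop1F1 against WTF1, met1 turned without a filter on low counts (-0.0039) and in a fit of the compared groups (-0.0066). For WTF1 against the parents, zmet2 and zmet5 turned with a term for the hybrid libraries numbered 1 (0.22 and 0.11), as did zmet5 for mop1F1 against the parents (0.67). That term fits 1 shift to both hybrids, whose gaps between libraries differed for these genes. The cause of the turns was not tested.

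With 1 library left out, the log2 fold change of mop1F1 over WTF1 ranged from -0.23 to 0.42 for met1, -0.42 to 2.04 for zmet2 and -0.61 to 1.72 for zmet5. WTF1 against the parents ranged from -0.20 to 0.49, -1.76 to 0.74 and -1.76 to 0.61, and zmet5 in mop1F1 against the parents from -0.086 to 0.014. The difference of the zmet2 to met1 ratio ranged from -0.49 to 0.12, and was 0.16 without the hybrid libraries numbered 1. That of zmet5 to met1 ranged from -0.70 to -0.15, and was -0.060 without them.

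For mop1F1 against WTF1, 2 IDs were called. There were 11 without a filter and 42 with DESeq2. There were 0 with 1 CPM in 2 libraries, with the replicate block, with the term for the hybrid libraries numbered 1 and with the compared groups alone (edgeR; 408, 391, 822 and 170 at an unadjusted p below 0.05), and 0 to 187 with 1 library left out (edgeR; for the 0, 2298 at an unadjusted p below 0.05). For B73 against Mo17 the 2561 IDs became 4010 with that term, 9334 of 23444 with the parents alone and 1062 to 1135 with 1 library left out. For WTF1 against the parents the 1169 IDs became 1873 without a filter, 2051 with the term, 2522 with DESeq2, 2531 with the compared groups alone and 322 to 1786 with 1 library left out. For mop1F1 against the parents the 1485 IDs became 2762 with the term, 2711 with DESeq2 and 393 to 3501 with 1 library left out. Against an arithmetic mid-parent both hybrids had 0 calls (edgeR; 2817 and 2978 at an unadjusted p below 0.05).

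The labels do not say that a replicate number marks a shared source. Deviations from the group means correlated at 0.311 between WTF1 and mop1F1 of the same number and at 0.0075 between the parents. With the replicate block, none of the 3 genes passed (mop1F1 against WTF1: 0.081, 0.56 and 0.30; edgeR, adjusted p = 1 for each), and 2272 IDs for the parents, 846 for WTF1 and 1061 for mop1F1 against the parents were called. The counting intervals of the 2 WTF1 libraries did not overlap for any of the 3 genes. They cover counting error only, and the part of depth and library quality in that gap was not tested.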
